A study of Rattus norvegicus with 29 samples.

Results

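Kainate receptor subunits are represented on the A array of the rat genome U34 set by 6 probe sets for 5 genes, Grik1 to Grik5, out of 8740 probe sets other than controls. They were taken by their single gene symbol in the platform annotation, and the rule applies no threshold to a measured value. Grik1, Grik2, Grik3 and Grik5 have 1 probe set each and Grik4 has 2. The arrays measured RNA from CA1 tissue of the hippocampus of male Fischer rats, with 9 young arrays (4 months), 10 mid-aged arrays (14 months) and 10 aged arrays (24 months). All 3 groups were trained on both tasks that the labels name SWM and OMT, with tissue taken 24 h after a sequence of 7 days, so no untrained rats stand in the comparison. The labels describe 10 rats per age and number the samples, and young 1 was not analysed here. No label says that each array holds the RNA of 1 rat, which was assumed, so p-values measure the spread between these arrays.

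Kainate receptors are tetrameric glutamate-gated cation channels that act on both sides of the synapse, where they carry slow excitatory currents and adjust transmitter release. GluK1, GluK2 and GluK3, encoded by Grik1, Grik2 and Grik3, can form channels by themselves. GluK4 and GluK5, encoded by Grik4 and Grik5 and known earlier as KA1 and KA2, bind kainate with high affinity and form channels only together with a subunit of the first kind. In the rodent hippocampus, Grik1 is known mainly from interneurons, Grik2 from pyramidal and granule cells, Grik4 from CA3 pyramidal cells and Grik5 from principal neurons of all fields.

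Of the 5 subunits, 3 were detected often enough to be tested. The Grik1 signal was higher in mid-aged and in aged than in young tissue by 1.34-fold and 1.30-fold, yet neither difference passed the adjusted threshold of 0.05 over the whole array. Grik2 and Grik5 gave intervals that include 0 in every pair of ages. Grik3 and the second Grik4 probe set were never called present, and the first Grik4 probe set was called present on 7 of 29 arrays. On all other arrays the deposited call for these was absent or marginal.

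Signals are in the arrays' own intensity units, and each comes with a call of whether the transcript was present, marginal or absent. The call rests on whether the probes that match the transcript outshine their mismatch partners, so a probe set can have a sizeable signal and still be called absent. Levels of different probe sets are not compared with each other, because each has its own probes. Tests were limited to probe sets with a present call on 9 or more of the 29 arrays, which kept 3861 of 8740 and 3 of the 6 kainate receptor probe sets. Grik2, present on 10 arrays, lay just inside that limit, and Grik4 (U08257_at), present on 7, lay just outside it. Since CA1 tissue was measured in bulk, fewer cells of a type and less RNA per cell cannot be told apart.

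Each array had present calls for 35.6% to 46.5% of its probe sets. The log2 ratio of the Gapdh control probe sets at the 3′ and 5′ ends, a measure of RNA integrity, had a median of -0.09 in young, -0.21 in mid-aged and -0.02 in aged arrays, with a highest value of 0.81 on an aged array. Of 7 pyramidal and general neuron markers on the array 6 were kept and 0 passed in any pair of ages, with a mean log2 level of 12.60 ± 0.10 in young, 12.64 ± 0.12 in mid-aged and 12.52 ± 0.24 in aged arrays (SD). Rgs14 and Pcp4, which are markers of neighbouring CA2, were present on all 29 arrays and passed in no pair of ages. In aged against young tissue Rgs14 differed by -0.27 (-0.51 to -0.04, adjusted limma p = 0.266) and Pcp4 by -0.33 (-0.65 to -0.01, adjusted limma p = 0.331). In mid-aged against young tissue they differed by -0.32 and -0.30. Calb1, the other kept gene of the list for dentate, CA2 or CA3 cells, differed by 0.02 in aged against young tissue (adjusted limma p = 0.930). Which field the RNA of these genes came from was not measured. Of 5 microglial markers on the array 3 were kept, and all 3 were higher in aged than in young tissue, and C1qb, a complement subunit, rose by 0.62 on the log2 scale (limma, adjusted p = 1.0e-04). Of 5 oligodendrocyte markers 1 was higher past the threshold in aged than in young tissue, Mag, a myelin protein. Hbb, a haemoglobin chain, was so too, while 0 of 6 astrocyte markers passed. Over all tested probe sets 1.66% passed in this pair. All 5 oligodendrocyte and all 6 astrocyte markers had positive differences, with medians of 0.29 and 0.22, against a median of -0.02 and 46.4% positive over all. The file columns of 5 young and 4 mid-aged arrays carry a shorter style of name than those of the other 4 young, 6 mid-aged and all 10 aged arrays, and the labels do not say what this style stands for. The part of RNA integrity, of these cell markers or of the naming style in any difference below was not tested unless a value is given.

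**Figure D1:**
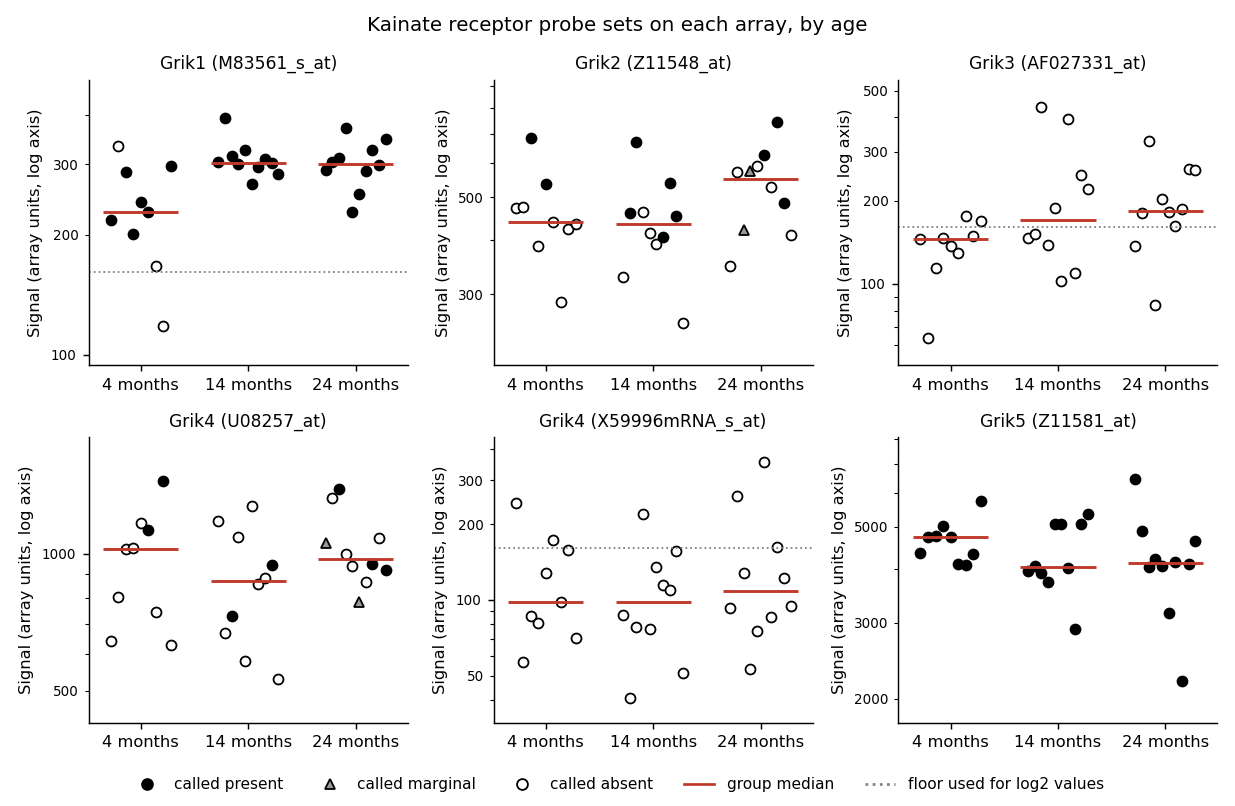
Signals of the 6 kainate receptor probe sets on each of 29 arrays at 4, 14 and 24 months, on log axes in array units, with a separate axis for each probe set. Filled circles were called present, triangles marginal and open circles absent, red lines are group medians and the dotted line is the floor of 160.8 used before taking log2. Grik1 was present on every mid-aged and aged array, while Grik3 and Grik4 (X59996mRNA_s_at) were absent on all 29.

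Grik1 encodes GluK1, a subunit with a pharmacology of its own among the kainate receptors. Its probe set (M83561_s_at) had signals from 117.6 to 332.7 with a median of 227.6 in young tissue, from 268.2 to 391.2 with a median of 303.1 in mid-aged tissue, and from 227.8 to 369.5 with a median of 301.15 in aged tissue. Present calls were made on 6 of 9 arrays at 4 months, 10 of 10 at 14 months and 10 of 10 at 24 months. The groups overlapped: young 3, at 332.7, lay within the range of both older groups. All 10 aged and all 10 mid-aged arrays nevertheless lay above the young median. Of the 9 young arrays, 5 lay below every aged array and 6 below every mid-aged array. The spread among young arrays (SD 0.36 on the log2 scale) was larger than among mid-aged (0.14) and aged arrays (0.21).

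In aged against young tissue the log2 difference of Grik1 was 0.38 (95% interval 0.14 to 0.61), a fold of 1.10 to 1.53. Its limma p of 0.00255 became 0.0953 after Benjamini-Hochberg adjustment, and it ranked 103 of 3861 probe sets by p. In mid-aged against young tissue the difference was 0.42 (0.19 to 0.65), with an adjusted limma p of 0.101 and rank 36. Aged and mid-aged arrays differed by -0.04 (-0.27 to 0.19, adjusted limma p = 0.970), so the gap in the group means lay between 4 and 14 months. The F test over the 3 ages gave an adjusted limma p of 0.0964.

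Of the fits that left out 1 array, Grik1 passed only in the fit without young 3. Young 3 had the highest young signal, 332.7, although it was called absent there, and in the authors' second, series-wide value table the same array had the lowest young Grik1 value, 113.2, against 191.7 to 316.8 on the other young arrays. Without young 3, Grik1 was higher in aged than in young tissue by 0.44 (adjusted limma p = 0.0237) and in mid-aged than in young tissue by 0.49 (adjusted limma p = 0.0313). That fit called 76 and 22 of 3861 probe sets in these comparisons. Other arrays left out moved Grik1 the other way. The aged against young difference was 0.32 without young 8 (adjusted limma p = 0.214) and 0.31 without young 9 (adjusted limma p = 0.196). For mid-aged against young tissue the highest adjusted limma p on leaving out single arrays was 0.288. With the series-wide table in place of the signals, the aged against young difference was 0.55 (adjusted limma p = 0.0386), in a fit that called 93 of 3861 probe sets. The lowest young array, young 9 at 117.6, was the only one under the floor.

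Grik1 was also split by naming style. Among young arrays the mean log2 signal was 7.65 ± 0.27 in the shorter style (SD, n = 5) and 8.10 ± 0.32 in the longer style (SD, n = 4). Among mid-aged arrays it was 8.37 ± 0.17 in the shorter style (n = 4) and 8.20 ± 0.08 in the longer style (n = 6), and the 10 aged arrays, all of the longer style, averaged 8.22 ± 0.21. The 4 shorter-style mid-aged arrays all lay above the 5 shorter-style young arrays, whereas the longer-style groups overlapped. How many other probe sets separate in this way was not counted. In the fit of the shorter style alone, 708 of 3861 probe sets had an unadjusted limma p under 0.05.

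Within the longer style alone, the difference was 0.12 in aged against young tissue (adjusted limma p = 0.755) and 0.10 in mid-aged against young tissue (adjusted limma p = 0.964). Within the shorter style alone, the mid-aged against young difference was 0.73 (adjusted limma p = 0.0528, in a fit that called 19 of 3861 probe sets), and no aged array has this style. With style as a term in the fit of all 29 arrays, the differences were 0.31 (adjusted limma p = 0.278) and 0.40 (adjusted limma p = 0.133). A further test, added after the data had been seen, asked whether the mid-aged against young difference itself differed between styles. The shorter-style difference exceeded the longer-style difference by 0.63 (0.22 to 1.05). The limma p of 0.00424 became 0.640 after adjustment over 3861 probe sets. Aged arrays do not enter this contrast.

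**Figure D2:**
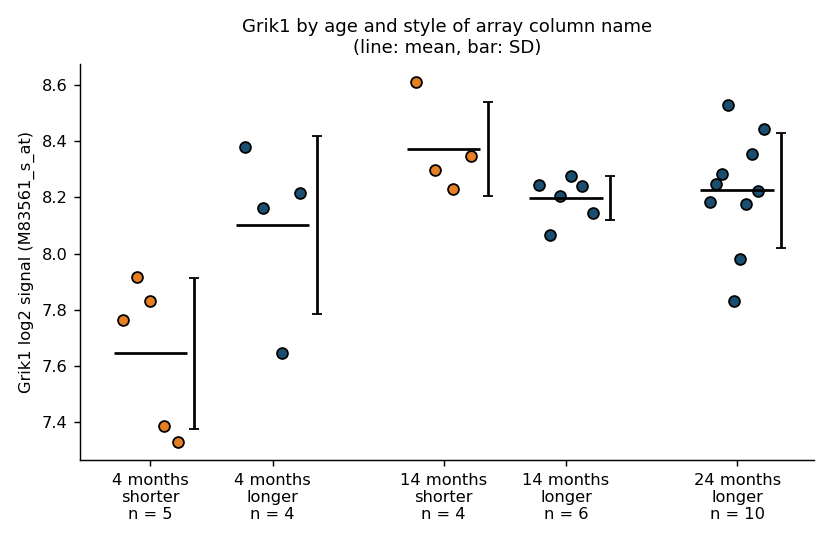
Log2 signal of Grik1 on each array, split by age and by the style of the array's column name, with n under each group; the lines are means and the bars SDs. Young arrays of the shorter style averaged 7.65 and those of the longer style 8.10, while mid-aged arrays averaged 8.37 and 8.20 and the aged arrays 8.22.

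Of 10 interneuron markers, 9 were kept. Their mean log2 level was 11.79 ± 0.09 in young, 11.68 ± 0.09 in mid-aged and 11.66 ± 0.10 in aged arrays (SD). It ran from 11.70 to 11.92 in young, from 11.59 to 11.88 in mid-aged and from 11.43 to 11.81 in aged arrays. In aged against young tissue 0 of the 9 passed, where 1.66% of all tested probe sets did. The median difference of the 9 was -0.10, against -0.02 over all tested probe sets. Only 1 of the 9 had a positive difference there, Pvalb, with 0.27 (0.06 to 0.49, adjusted limma p = 0.212). Npy, a peptide of hippocampal interneurons, fell by 0.39 in mid-aged against young tissue (adjusted limma p = 0.0372). With the mean marker level as a covariate, the Grik1 difference was 0.36 in aged against young tissue (adjusted limma p = 0.184) and 0.41 in mid-aged against young tissue (adjusted limma p = 0.164).

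Grik2 encodes GluK2, a principal channel-forming subunit of hippocampal kainate receptors. Signals of its probe set (Z11548_at) ran from 288.5 to 683.4 with a median of 438.5 in young tissue, from 257.8 to 668.7 with a median of 434.2 in mid-aged tissue and from 347.2 to 744.3 with a median of 550.55 in aged tissue. Present calls numbered 2 of 9 at 4 months, 5 of 10 at 14 months and 3 of 10 at 24 months, with a further 2 aged arrays called marginal. The groups overlapped over most of their range, and 7 of 10 aged arrays lay above the median of either younger group.

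The log2 difference of Grik2 was 0.20 in aged against young tissue (-0.11 to 0.52, adjusted limma p = 0.588). In aged against mid-aged tissue it was 0.28 (-0.02 to 0.59, adjusted limma p = 0.924), and in mid-aged against young tissue -0.08 (-0.39 to 0.24, adjusted limma p = 0.885). Changes up to the upper bounds, which for the aged group are 1.43-fold over young and 0.59 on the log2 scale over mid-aged tissue, were therefore not resolved. The aged against young difference was 0.12 without young 8 and 0.04 with the series-wide table (adjusted limma p = 0.960). Within the longer style the differences in this order were 0.10, 0.42 and -0.33, and within the shorter style the mid-aged against young difference was 0.22, none with an adjusted limma p below 0.573.

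Grik3 encodes GluK3, a subunit of low glutamate sensitivity. Its probe set (AF027331_at) was not called present on any of the 29 arrays, and its detection p-values lay between 0.459 and 0.893. Signals ran from 63.6 to 175.4 in young, from 102.8 to 437.6 in mid-aged and from 84.2 to 327.7 in aged tissue. Values at the floor numbered 7 of 9 at 4 months, 5 of 10 at 14 months and 2 of 10 at 24 months. In the fit of all 8740 probe sets the difference was 0.31 in aged against young tissue (-0.05 to 0.67, adjusted limma p = 0.558) and 0.38 in mid-aged against young tissue (0.02 to 0.75, adjusted limma p = 0.592). With every age absent these are differences of signals at or near background, not of a measured Grik3 level. In the series-wide table all 29 Grik3 values were below 0.

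Grik4 encodes GluK4, a high-affinity subunit that needs a GluK1 to GluK3 partner. Its first probe set (U08257_at) had signals from 629.0 to 1440.2 with a median of 1022.6 in young, from 531.2 to 1273.2 with a median of 869.05 in mid-aged and from 784.1 to 1389.0 with a median of 974.45 in aged tissue. Present calls numbered 2 of 9 at 4 months, 2 of 10 at 14 months and 3 of 10 at 24 months, and 2 aged arrays were marginal. The groups overlapped, although 3 of 9 young and 4 of 10 mid-aged arrays lay below every aged array. In the fit of all 8740 probe sets the difference was 0.14 in aged against young tissue (-0.21 to 0.49, adjusted limma p = 0.850). It was 0.27 in aged against mid-aged tissue (-0.07 to 0.61) and -0.13 in mid-aged against young tissue (-0.48 to 0.22).

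The second Grik4 probe set (X59996mRNA_s_at) was absent on all 29 arrays. Its signals had a median of 98.2 in young, 98.2 in mid-aged and 108.65 in aged tissue, and 23 of 29 lay at or under the floor. The 2 Grik4 probe sets thus gave different detection records on the same RNA, and neither gave a Grik4 level on most arrays.

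Grik5 encodes GluK5, the widely expressed high-affinity partner subunit, and was the only member present on all 29 arrays (Z11581_at). Its signals ran from 4074.6 to 5726.0 with a median of 4731.3 in young tissue, from 2900.9 to 5357.1 with a median of 4037.15 in mid-aged tissue and from 2202.0 to 6443.2 with a median of 4127.5 in aged tissue. The aged group held both the lowest and the highest array, and its range covered that of the other groups. The SD on the log2 scale was 0.16 in young, 0.28 in mid-aged and 0.40 in aged arrays. The lowest values came from aged 8 and mid-aged 8, which are among the 6 arrays least like the rest over all probe sets.

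The log2 difference of Grik5 was -0.19 in aged against young tissue (-0.47 to 0.09, adjusted limma p = 0.558). It was -0.07 in aged against mid-aged tissue (-0.33 to 0.20, adjusted limma p = 0.957) and -0.12 in mid-aged against young tissue (-0.40 to 0.15, adjusted limma p = 0.789). The aged against young difference was -0.09 without aged 8, -0.07 without the 6 least typical arrays and -0.07 with array weights. The interval over all arrays allows a level of 0.724 to 1.06 times that of young tissue. Of 10 arrays each, 4 aged and 6 mid-aged arrays lay below every young array, while 1 aged and 0 mid-aged arrays lay above every young one. Within the longer style the differences in the same order were -0.32, -0.09 and -0.23, and in the shorter style the mid-aged against young difference was -0.05.

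**Figure D3:**
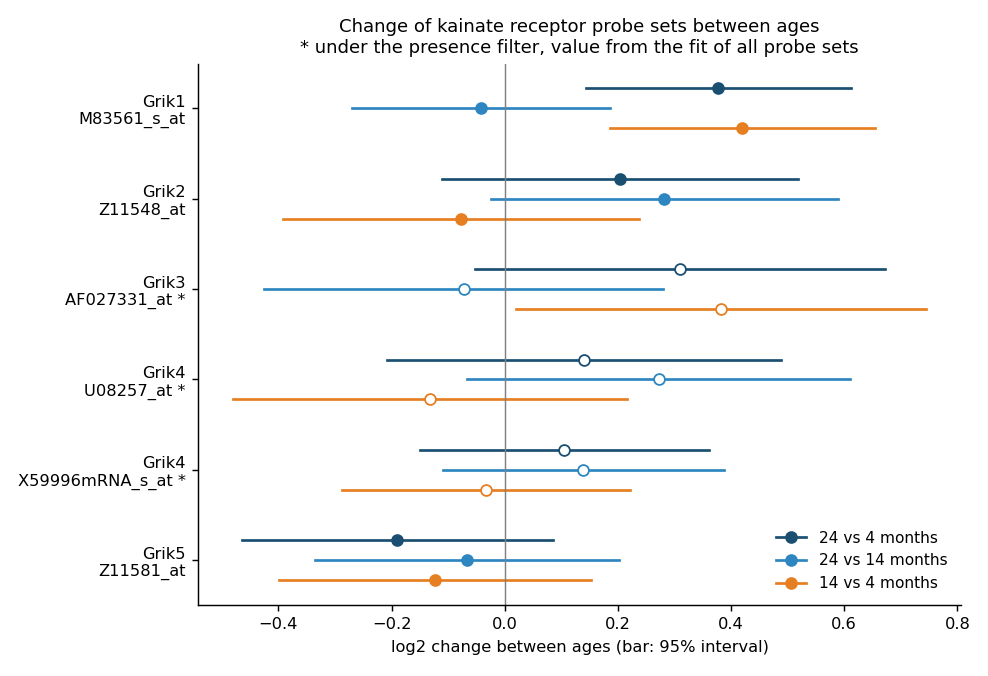
Log2 change of each kainate receptor probe set between ages with its 95% interval, for 24 against 4 months, 24 against 14 months and 14 against 4 months. Filled points come from the fit of the 3861 kept probe sets and open points from the fit of all 8740, since those 3 probe sets are under the presence filter. The Grik1 intervals against young tissue (0.14 to 0.61 and 0.19 to 0.65) lie above 0, and the intervals of Grik2 and Grik5 include 0. The Grik3 interval for 14 against 4 months (0.02 to 0.75) also lies above 0, although that probe set was absent on all 29 arrays.

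Counted over the family, 0 of 3 kept probe sets passed in aged against young tissue, where 1.66% of all tested probe sets did. In aged against mid-aged tissue 0 of 3 passed, against 0.0518% of all, and in mid-aged against young tissue 0 of 3, against 0.414% of all. The F test called 0 of 3, against 1.32% of all. With 3 members and such background shares, nothing is read from a count of 0. At an unadjusted limma p under 0.05, Grik1 alone passed in aged against young and in mid-aged against young tissue (548 and 431 of 3861 probe sets), and no member passed in aged against mid-aged tissue (200 of 3861). With array weights in the limma fit 1 of 3 passed in each comparison with young tissue, Grik1 both times. That fit called more probe sets as a whole, 326 of 3861 in aged against young and 87 of 3861 in mid-aged against young tissue.

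The members' signals were also compared with one another across arrays. Of 6 pairs among Grik1, Grik2, Grik4 (U08257_at) and Grik5, 5 had Pearson correlations between -0.18 and 0.26 over 29 arrays, with adjusted permutation p-values of at least 0.520. Grik2 and Grik5 ran in opposite directions, with r = -0.50 (two-sided permutation p = 0.00543, 0.0326 adjusted over the 6 pairs). The rank correlation was -0.40 (permutation p = 0.0318, adjusted 0.191), so it did not pass the adjustment. Without the 2 arrays farthest from the Grik2 median r was -0.31, and the relation rests in part on them.

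The Grik2 and Grik5 correlation was -0.50 for deviations from the age means and -0.49 once the 6 least typical arrays were left out. It was -0.59 among the longer-style arrays and -0.08 among the shorter-style arrays. Aged 8 had the highest Grik2 signal (744.3) together with the lowest Grik5 signal (2202.0). Arrays share their scaling step, and most Grik2 values here were called absent.

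**Figure D4:**
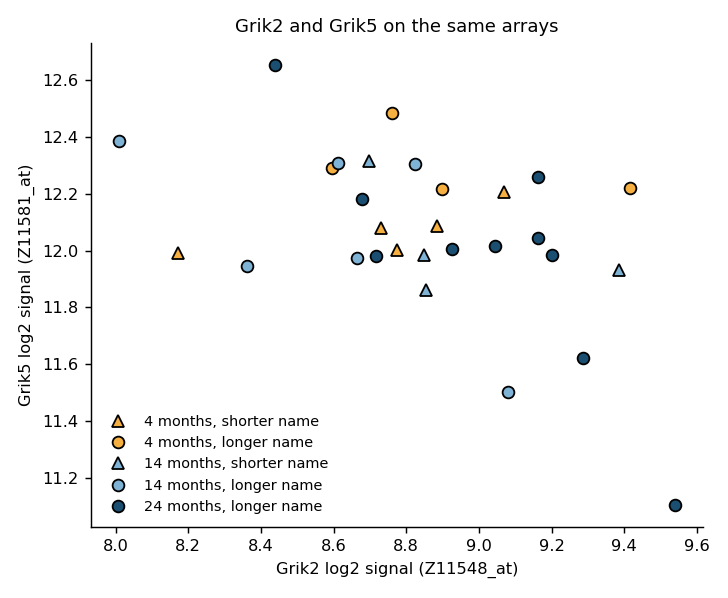
Log2 signals of Grik2 (horizontal) and Grik5 (vertical) on the same 29 arrays, coloured by age, with triangles for the shorter and circles for the longer style of column name. The points run downwards (r = -0.50), and the lowest point at the right is aged 8.

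Among 2406 other genes compared, those most like Grik1 over the 29 arrays were Id3, an inhibitor of helix-loop-helix factors (r = 0.68, rho = 0.52), Gng8, a G protein gamma subunit (0.67, 0.58), and Yipf3, a Golgi membrane protein (0.67, 0.62). Of these, Gng8 rose by 0.51 on the log2 scale in aged against young tissue (adjusted limma p = 0.0101), while Id3 differed by 0.48 (adjusted limma p = 0.0983) and Yipf3 by 0.28 (adjusted limma p = 0.288). The genes most like Grik2 were Vcp, an ATPase that extracts ubiquitinated proteins (r = 0.67), Ddx46, a splicing helicase (0.63), and Litaf, an endosomal membrane protein (0.63). Those most like Grik5 were Hk1, a hexokinase (r = 0.78, rho = 0.59), Tle5, a transcriptional corepressor (0.77, 0.60), and Kcnh3, a voltage-gated potassium channel (0.74, 0.43). The rank correlations of the Grik5 neighbours were lower than their r, and Hk1 differed by 0.0027 between aged and young tissue (adjusted limma p = 0.993). These were chosen as the highest of 2406 values and carry no test.

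The other ionotropic glutamate receptors, of AMPA, NMDA and delta type, share the synapses in which kainate receptors work. Of 13 listed genes, 11 were on the array and 8 were kept, and 0 of 8 passed in any pair of ages. The shares over all tested probe sets were 1.66% in aged against young, 0.0518% in aged against mid-aged and 0.414% in mid-aged against young tissue. The 8 receptor genes had a median log2 difference of 0.05 in aged against young tissue, against -0.02 over all tested probe sets. It was -0.16 in aged against mid-aged tissue, against -0.00 over all, and 0.12 in mid-aged against young tissue, against -0.02 over all. The gene with the smallest F-test p was Grin2c, an NMDA receptor subunit, with 0.40 in aged against young tissue (0.15 to 0.66, adjusted limma p = 0.0989). Grin2b, another NMDA subunit, differed by 0.26 in mid-aged against young tissue (adjusted limma p = 0.398), Gria3, an AMPA subunit, by 0.39 (adjusted limma p = 0.642), and Grin1, the obligatory NMDA subunit, by 0.47 (adjusted limma p = 0.656). In aged against young tissue Grin2b differed by 0.10, Gria3 by -0.01 and Grin1 by 0.30.

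Proteins that bind, traffic or modify kainate receptors were also counted, among them scaffold proteins, kinases, the phosphatase calcineurin and an RNA editing enzyme. Of 30 listed genes, 19 were on the array and 17 were kept, and 0 of 17 passed in any pair. Over all tested probe sets 1.66% passed in aged against young, 0.0518% in aged against mid-aged and 0.414% in mid-aged against young tissue. With such shares nothing is read from a count of 0. The 17 genes had median differences of 0.07 in aged against young, -0.06 in aged against mid-aged and 0.10 in mid-aged against young tissue. Over all tested probe sets the medians in this order were -0.02, -0.00 and -0.02. Cdh2, an adhesion protein, differed by 0.43 in aged against young tissue (0.09 to 0.76, adjusted limma p = 0.212), and Ppp3ca, the calcineurin catalytic subunit, by 0.41 (0.06 to 0.76, adjusted limma p = 0.268). Cask, a scaffold kinase, differed by -0.32 in aged against mid-aged tissue (adjusted limma p = 0.709). Camk2a, a synaptic kinase, differed by 0.50 in mid-aged against young tissue (-0.07 to 1.07, adjusted limma p = 0.515). In aged against young tissue Cask differed by -0.18 and Camk2a by -0.0005.

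**Figure D5:**
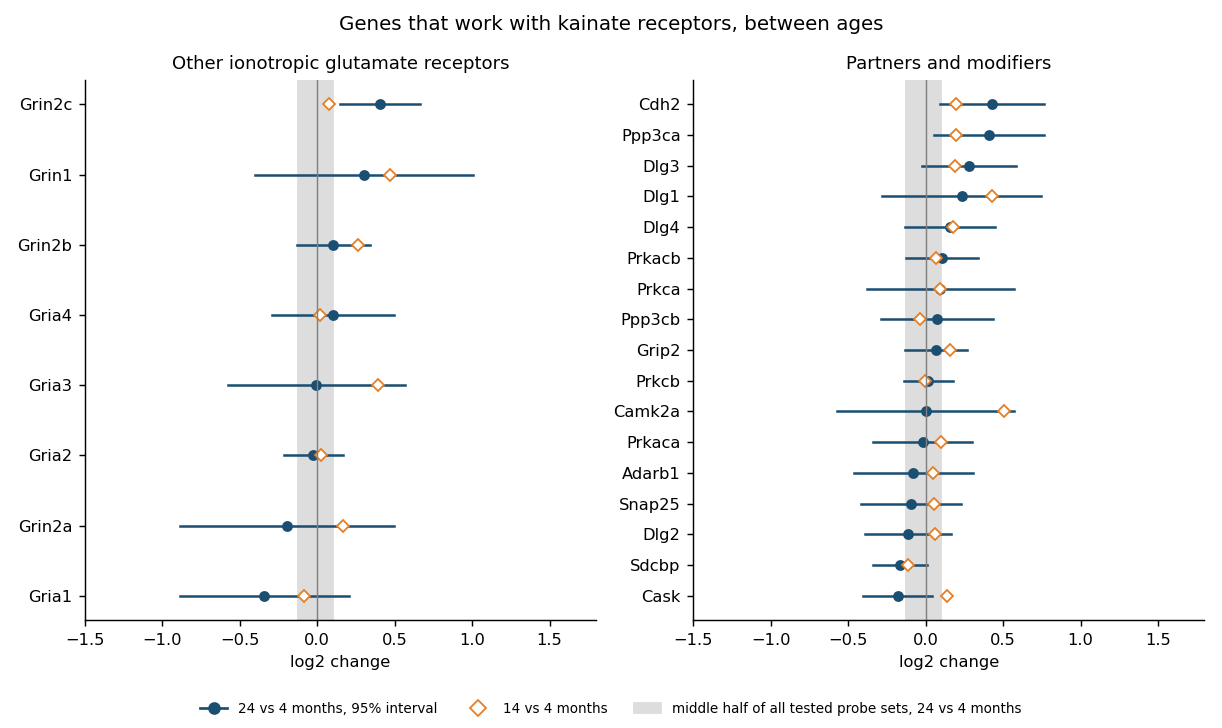
Log2 change of the 8 other ionotropic glutamate receptors (left) and 17 partners and modifiers (right) that were kept, with filled points and 95% intervals for 24 against 4 months and open diamonds for 14 against 4 months. The grey band holds the middle part, from the 25th to the 75th percentile, of all 3861 tested probe sets (-0.13 to 0.10), and no gene shown passed the adjusted threshold.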

How the data were processed

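Each array file holds, per the file headers, a signal intensity deposited by the authors for each of 8799 probe sets, a detection call and a detection p-value. The column names are those of Microarray Suite statistical output; software version, scaling target and genome build were not given in the sources used here, so the text has no coordinates. The deposited signals had like trimmed means on all arrays, and how they were scaled was not stated. A second table deposited for the series as a whole, with intensity values from -39359.3 to 70316.6 on a linear scale and column medians of 314.85 to 467.75, tracked each array best by rank (29 of 29). Its centring appears absent and its direction is the same, while its computation is unknown. It served as an alternative, floored alike. One extra column, a copy of another young array, was not used.

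Without 59 controls, signals were rescaled to a common mean trimmed by 2% at each end (factors 0.999 to 1.00), floored at the median absent value (160.8) and converted to log2, since the deposited values are not on a log2 scale. A fold is on this floored scale. All 29 arrays were fitted with limma 3.58.1 (lmFit, eBayes) in R 4.3.3, with two-sided tests and Benjamini-Hochberg adjustment over 3861 probe sets. Correlations used Python 3.11.15 with scipy 1.17.1 and 100000 resamples. Of these steps, only the limma comparison of aged against young arrays was tried on simulated data, with independent normal noise. Probe sets carry 1 annotated symbol (7006), several (308) or none (1426).

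The members and gene lists were chosen with earlier results of these data known. Named besides the members were, per list, genes past the threshold and up to 4 with the smallest F-test p, and the 3 genes most like each member. C1qb, Mag, Hbb, Npy, Pvalb, Rgs14, Pcp4 and Calb1 were named after their values were seen. Each gene was taken by its brightest kept probe set. Deviations of same-numbered arrays from their age means correlated somewhat more than those of other pairs (mean r 0.117 against -0.0078), but only 13 of 28 same-number pairs exceeded 0.1 and no label says that a number marks a shared litter, batch or day, so numbers were not used as pairs. No 2 arrays held identical values. Alternatives covered scaling, filter, floor, value table, variance trend, array weights, replicate block, naming style, 2-group fits, arrays left out and a marker covariate. The number of arrays limits precision.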

Additional observations from a re-analysis of the deposited data

Results flagged for a closer look

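In 3 of 18 groups of arrays (6 probe sets at 3 ages), 1 array stood apart from the others of its group by the gap to its nearest neighbour. The chance rate of about 1 in 20 is for values that are not tied, so it does not hold for groups mostly at the floor. Mid-aged 2 had a Grik1 log2 signal of 8.61, a signal of 391.2, against 8.07 to 8.35 on the other mid-aged arrays, and the array was called present. The other flags belong to the second Grik4 probe set (X59996mRNA_s_at), which was absent on every array and mostly at the floor. They are young 2 with a log2 signal of 7.93 and mid-aged 4 with 7.78. In these groups 7 of 9 young and 9 of 10 mid-aged arrays lay at the floor, so a single mid-aged array above it is flagged whatever its value. The cause was not tested.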

How the results depend on the processing

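No alternative called Grik2 or Grik5. Grik1 passed in aged against young tissue with the series-wide table (0.55, adjusted limma p = 0.0386), with array weights (0.43, adjusted limma p = 0.0138) and without young 3; in mid-aged against young tissue it passed with array weights (0.52, adjusted limma p = 0.0136) and without young 3. The count of kainate receptor calls was therefore 1 in place of 0 in these fits, and 0 to 1 on leaving out single arrays. Over all tested probe sets, the aged against young count of 64 became 326 with array weights, 16 in the longer style alone and 131 when the 6 least typical arrays were left out (52 to 84 on leaving out single arrays). The aged against mid-aged count of 2 became 0 with no filter, the series-wide table, the fit of those 2 groups and without the 6 arrays (0 to 4 on leaving out single arrays; at an unadjusted p under 0.05 these fits gave 369, 192, 177 and 202). The mid-aged against young count of 16 became 8 with the series-wide table, 87 with array weights, 0 in the longer style alone (171 unadjusted) and 63 without the 6 arrays (8 to 22 on leaving out single arrays). Leaving out single arrays gave Grik1 differences of 0.31 to 0.44 against young tissue for aged and 0.35 to 0.49 for mid-aged arrays. With the replicate number as a block, Grik1 gave 0.38 (adjusted limma p = 0.0883) and 0.42 (0.0939), and 77, 2 and 13 probe sets passed in the order above; the block changed no kainate receptor call. Grik1 in aged against young tissue was 0.0 with the floor at the 75th percentile of absent values, since that floor lies above nearly all Grik1 signals. With the series-wide table the mid-aged against young difference was -0.34 for Grik2 and -0.00044 for Grik5. Some differences near 0 turned sign. Grik1 in aged against mid-aged tissue was 0.028 in the longer style alone and ran from -0.076 to 0.0016 on leaving out single arrays, above 0 without aged 5. Grik5 in aged against mid-aged tissue ran from -0.141 to 0.031, above 0 without aged 8. Grik2 in mid-aged against young tissue was 0.0021 with array weights, 0.22 in the shorter style alone, 0.0015 without the 6 arrays and from -0.157 to 0.0030 on leaving out single arrays, above 0 without mid-aged 10. Grik2 could not be tested under the filters of 15 or 20 present arrays. Apart from those constructions the cause was not tested. Signal over background limits Grik3 and Grik4.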
